A study of Mus musculus with 13 samples.

Results

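Peaks of STAT3 CUT&RUN were examined around 10 mouse genes that regulate NF-kB downstream of the receptor CD40: Bcl3, Birc2, Birc3, Nfkbia, Nfkbiz, Tnfaip3, Nfkb1, Nfkb2, Relb and Traf1. The genes were taken from a named list that was chosen with earlier results of these data known. Every peak that overlapped the RefSeq span of a gene or the 50 kb on either side was kept. Of 13513 peaks in 12 lists, 33 lay in these windows. Overlapping peaks (1 bp or more) were merged across libraries, which gave 24 regions near the 10 genes, of 11227 regions in all. The site in the gene body of Bcl3 was the only one of the 24 with a peak in more than 2 libraries: every one of the 4 wild-type (WT) libraries given IL-21 had a peak there, and the other 8 had none.

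In CUT&RUN a nuclease is tethered to chromatin by an antibody, here against STAT3, and the DNA fragments it cuts free are sequenced. Naive mouse splenic B cells had been cultured for 96 h, with IL-4 at 12.5 ng/mL and anti-CD40 at 1 µg/mL, and sorted into IgM+ and IgG1+ cells. Samples of 400000 cells then received anti-CD40 for 1 h together with IL-21 at 10 ng/mL or, in the comparison groups, IL-4 at 12.5 ng/mL. Each of the 4 WT groups (IgM or IgG1, IL-4 or IL-21) had 2 libraries, and each of the 4 matching STAT3 KO groups had 1. An input sample was not analysed here. CD40 was engaged in every group, so the comparison concerns the cytokine and not CD40 itself. A gain with IL-21 cannot be told apart from an effect of leaving out IL-4. The labels give neither the way STAT3 was deleted nor whether replicates came from separate mice, so p-values speak of the variation among these libraries, some or all of which may be technical. A peak list holds no expression level, so neither the B cell identity nor the loss of STAT3 could be checked by expression.

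CD40 on B cells drives NF-kB by 2 routes. In the canonical route IkBα, encoded by Nfkbia, is degraded and frees dimers that contain p50, the product of Nfkb1. In the alternative route the kinase NIK is stabilised, p100 (Nfkb2) is cut to p52, and p52 pairs with RelB. The ligases cIAP1 and cIAP2 (Birc2 and Birc3) work with TRAF proteins on NIK, TRAF1 is an adaptor of the receptor complex, and A20 (Tnfaip3) is a ubiquitin-editing enzyme that ends the signal. Bcl-3 (Bcl3) and IkBζ (Nfkbiz) are atypical IkB proteins that act in the nucleus on p50 and p52. STAT3 is the main STAT that IL-21 activates.

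The lists of the 12 libraries held 623 to 2034 peaks. Their lowest −log10 p was 5.00, and fold enrichment, the authors' value for the signal at a summit over the local background of that library, was used to describe peaks within a list. From these 2 values the number of fragments piled up at a summit, and the Poisson background expected there, could be worked back. The smallest pileup called in any library was 10 to 12 fragments. A region without a peak may therefore still have been bound below that height, or above it where the local background was higher.

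RefSeq start regions (GRCm38.p6, 250 bases before to 50 after a start) were matched for 7 of the 10 genes, all but Nfkbiz, Nfkb1 and Relb, with 11 starts. These 2 are shown because peaks overlapped only them among the 11. Capitals mark the bases under every peak that overlaps the stretch, which are the last 159 bases at Birc3 (2 libraries) and the last 25 at Nfkbia (1 library).
Birc3, chr9:7873121-7873420, minus strand: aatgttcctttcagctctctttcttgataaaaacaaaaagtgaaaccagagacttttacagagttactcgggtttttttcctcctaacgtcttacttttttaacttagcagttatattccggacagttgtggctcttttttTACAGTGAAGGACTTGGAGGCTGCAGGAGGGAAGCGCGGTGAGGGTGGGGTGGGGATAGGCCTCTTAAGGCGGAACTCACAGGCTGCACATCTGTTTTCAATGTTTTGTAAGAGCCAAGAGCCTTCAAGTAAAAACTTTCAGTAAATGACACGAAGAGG
Nfkbia, chr12:55492598-55492897, minus strand: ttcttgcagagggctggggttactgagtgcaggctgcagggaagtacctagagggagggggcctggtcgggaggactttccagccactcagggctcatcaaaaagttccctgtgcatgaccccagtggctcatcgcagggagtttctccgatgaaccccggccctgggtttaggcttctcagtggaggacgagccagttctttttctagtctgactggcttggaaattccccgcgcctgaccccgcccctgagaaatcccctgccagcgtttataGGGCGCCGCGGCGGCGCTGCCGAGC

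These starts were searched on both strands for 3 motifs: the STAT motif TTCNNNGAA, its form with a wider spacer TTCNNNNGAA, and the kB consensus bound by NF-kB. The Birc3 start held none of the 3. That of Nfkbia held 1 kB match, GGAAATTCCC, beginning 29 bp before the transcription start and outside the peak. The Bcl3 start held 1 kB match, GGGAAGTCCC, 2 bp after the transcription start, and had no peak over it. At Tnfaip3 the TTCNNNNGAA match TTCTTCAGAA lay 242 bp before the start, and at Nfkb2 the TTCNNNGAA match TTCCCCGAA lay 148 bp before it, both without a peak. The 3 Nfkb2 starts each held kB matches as well, a pair of which overlapped each other. The stretches of 2 of these starts overlap and share 1 match, GGGACTTTCC. A Tnfaip3 start held 2 kB matches, and the starts of Birc2 and Traf1 held none of the motifs. Over all 32851 RefSeq starts of the table, 8.30% held TTCNNNGAA, 6.95% TTCNNNNGAA and 8.46% the kB consensus. A match describes the letters, and no binding is read from it. The sequence beneath the gene-body site of Bcl3 was not used here.

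**Figure D1:**
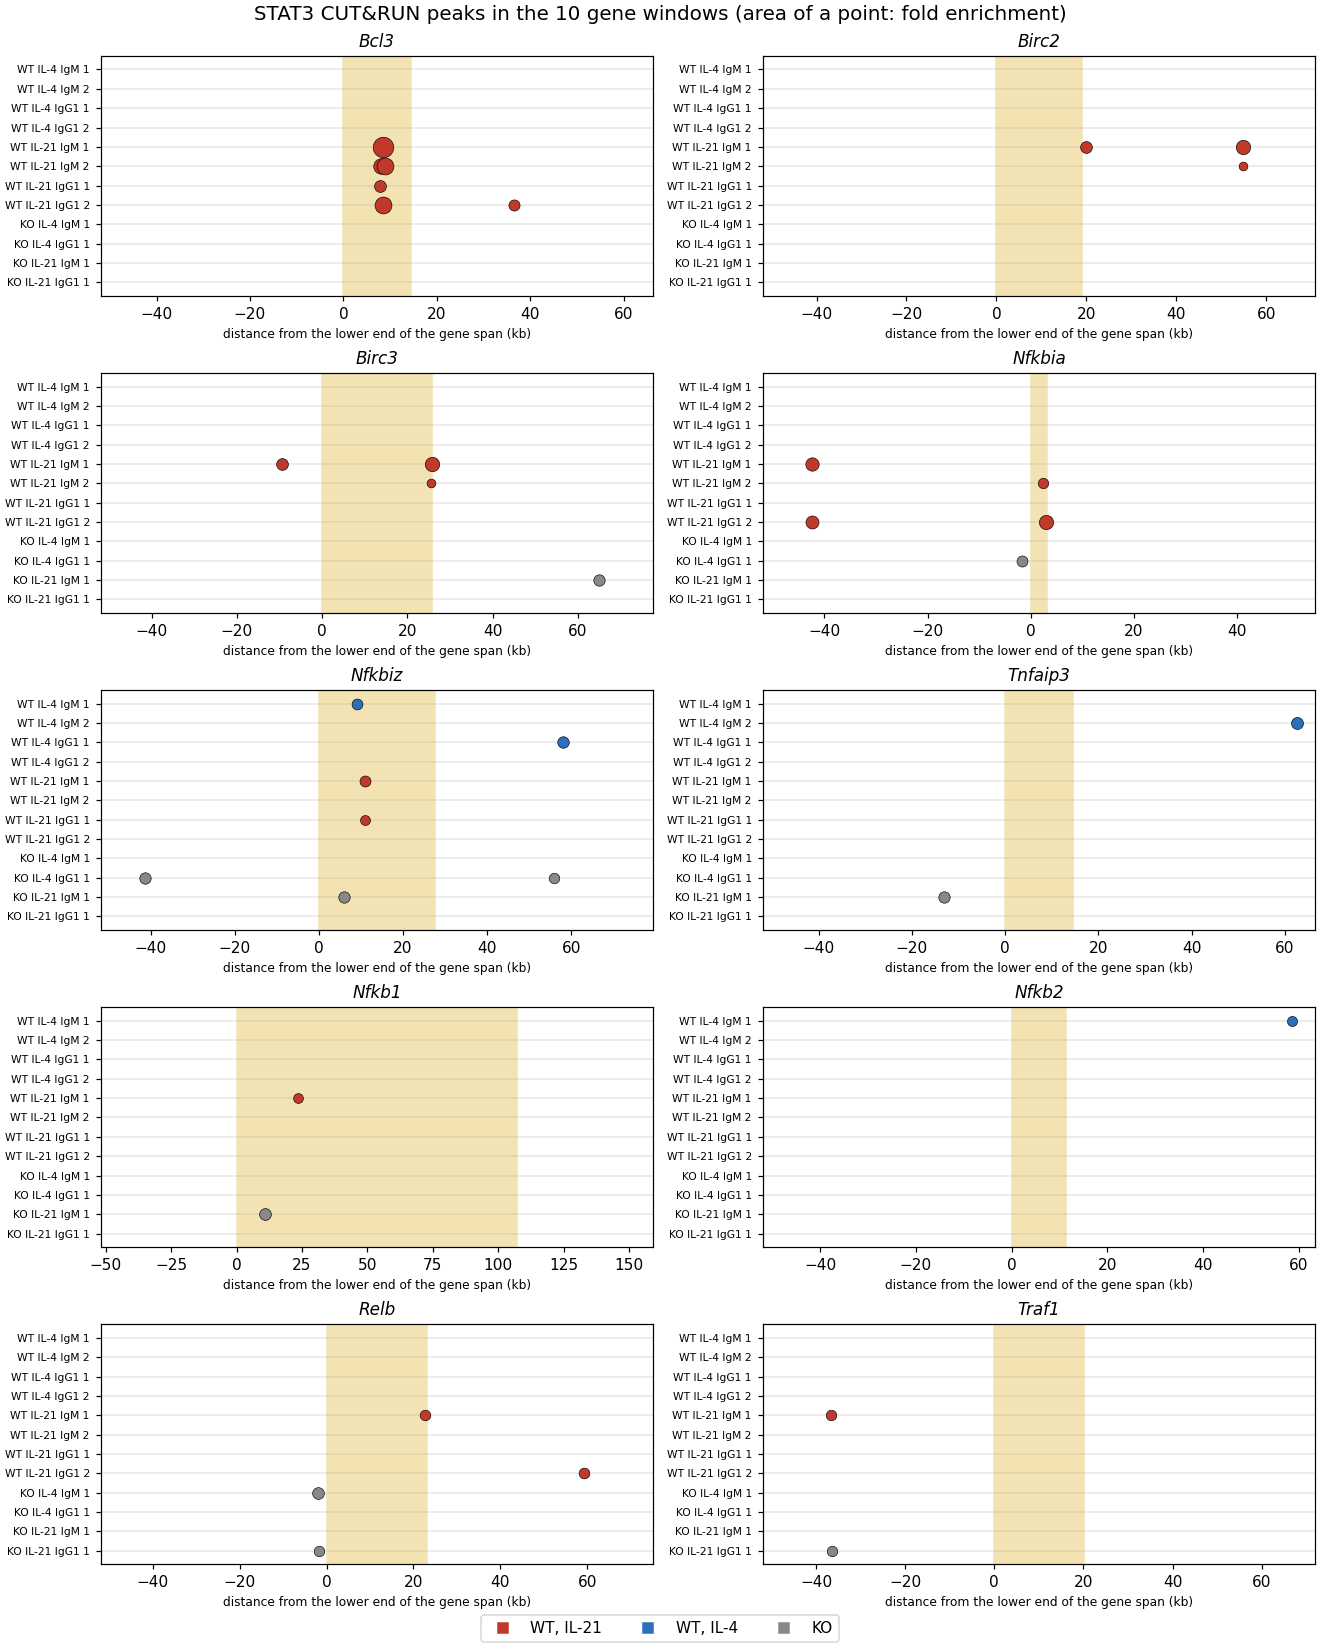
Peaks in the 10 windows, one panel per gene. The x axis is the distance in kb from the lower-coordinate end of the gene span (shaded), rows are the 12 libraries, and the area of a point is proportional to fold enrichment. Red points are WT libraries with IL-21, blue points WT with IL-4 and grey points KO. The only column of points shared by 4 libraries lies inside Bcl3, and Nfkb2 and Tnfaip3 have no red point.

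Bcl3 carried the strongest and most regular site of the group. It lay inside the gene on chromosome 7, between 19816034 and 19817665 (mm10), 6415 bp downstream of the annotated transcription start at its highest peak. Whether this is exon or intron was not annotated here. The fold enrichment in IgM cells with IL-21 was 15.0 in the first library and 10.1 in the second. In IgG1 cells with IL-21 it was 5.01 and 10.2. All 4 WT libraries with IL-21 thus had a peak, and the 4 WT libraries with IL-4 and the 4 KO libraries had none. The same split by cytokine in WT cells was seen at 98 of the 7461 regions found in WT (1.31%), so it was not particular to Bcl3.

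The mean fold with IL-21 was 10.1 ± 4.08 (SD, n = 4). By column 8 of the lists, the −log10 p, the site stood at rank 79 of 2034 in the first IgM library. In the second IgM library it had 2 peaks, of fold 8.56 at rank 86 of 1171 and of fold 10.1 at rank 93. In the IgG1 lists the site stood at rank 198 of 865 and rank 79 of 1485. By its best-ranked peak it was thus within the top 3.88% to 7.34% of 3 lists and the top 22.9% of the first IgG1 list, which had the lowest fold as well.

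The Bcl3 region was broad and had more than 1 summit. In the first IgM and the second IgG1 library a peak of 1625 and 1586 bp, respectively, covered nearly all of its 1632 bp. In the second IgM library it was called as 2 peaks, 315 bp apart, with folds of 8.56 at the lower coordinate and 10.1 at the higher one. Their summits were 1094 bp apart. In the first IgG1 library the peak was 277 bp long and covered the part at the lower coordinate. The summits there fell within 11 bp of each other in all 4 libraries (19816333 to 19816344), so the 4 lists located the same point.

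The recovered pileup at that summit was 60 fragments in the first IgM library (95% Poisson interval 45.8 to 77.2) and 45 in the second (32.8 to 60.2). It was 22 in the first IgG1 library (13.8 to 33.3) and 46 in the second (33.7 to 61.4). These intervals cover counting error only. At the backgrounds found at the Bcl3 summits in these lists, 2.65 to 4.37 fragments, a pileup of 12 to 16 would have reached the lowest −log10 p in the lists. The background in the libraries without a peak is not known, so how far the signal there lay below that height cannot be given.

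**Figure D2:**
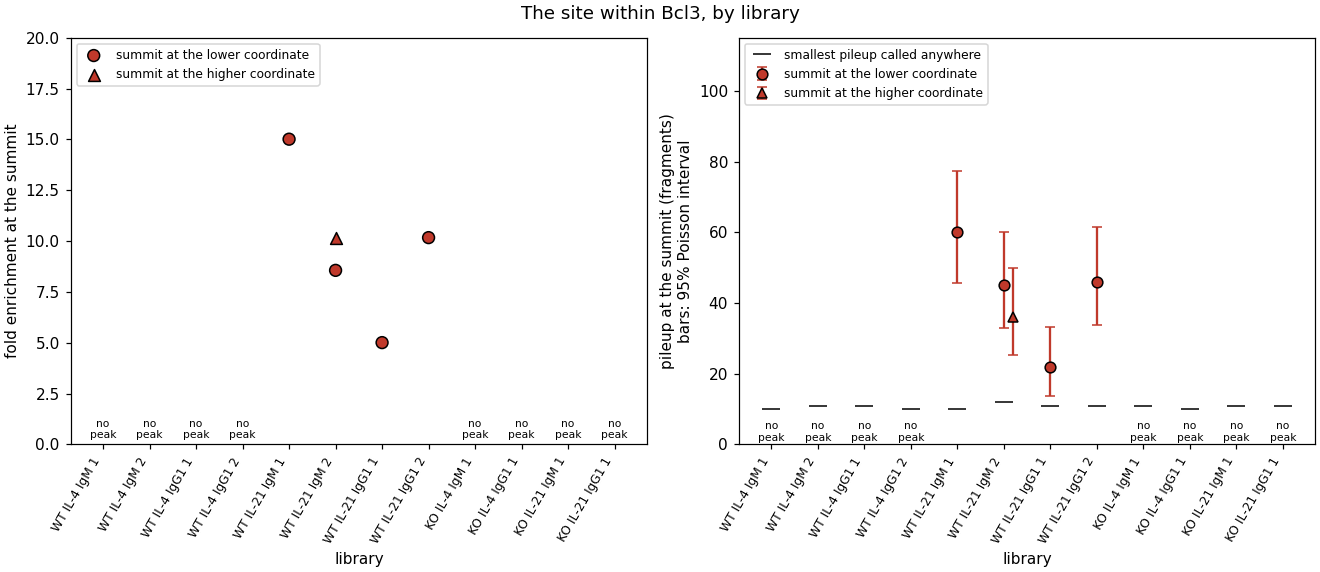
The site within Bcl3 in the 12 libraries. The left axis gives fold enrichment at each summit and the right axis the recovered pileup in fragments with its 95% Poisson interval; dashes mark the smallest pileup called anywhere in a library. The 4 WT IL-21 libraries have folds of 5.01 to 15.0 and pileups of 22 to 60, and the other 8 libraries have no peak.

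The Bcl3 site was the single member region called gained with IL-21, meaning a peak in 4 of 4 WT IL-21 and 0 of 4 WT IL-4 libraries. Of the 7461 regions found in WT, 1.31% were called by this rule. Fisher's exact test on presence in 4 against 4 libraries gave p = 0.0286 for it, the smallest value the design allows, and an adjusted p of 1 over the 7461 regions (Benjamini-Hochberg). No region of the series passed the adjustment. Fisher's exact test takes the libraries as independent. If replicate numbers pair them, an exact permutation test (two-sided) on 4 pairs can give no p below 0.125. No region could then be under 0.05. By Fisher's exact test, 98 regions had an unadjusted p under 0.05. Among those 98 the Bcl3 region was in place 40 by mean fold, with a median of 9.07 over the 98, and in place 4 by width (1632 bp against a median of 799.5 bp). Within single lists its fold was in place 40, 29 and 38 of the 98 in the 2 IgM and the second IgG1 libraries, but in place 70 in the first IgG1 library. In the reverse direction, a peak in every WT IL-4 library and no WT IL-21 library, 0 of the 7461 regions were called, so the 0 near the 10 genes is that of the whole series.

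A further region in the Bcl3 window, between 19844807 and 19845122 and 22064 bp outside the gene, had a peak in the second IgG1 IL-21 library at a fold of 4.40. Its nearest coding gene was Gm19345.

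Sites at the other genes were found in 1 or 2 libraries each. The neighbouring genes Birc2 and Birc3 share most of their windows on chromosome 9. The peak over the start of Birc3, shown above, spanned 7872822 to 7873336. Its fold was 7.41 in the first IgM IL-21 library (rank 370 of 2034, pileup 25) and 2.74 in the second (rank 1118 of 1171, pileup 22). The 2 IgG1 libraries with IL-21 lacked it, as did all those with IL-4 and all from KO cells. The summit was 56 bp before the transcription start in the first library, while in the second it lay at 7872844, inside the gene. The mean fold was 5.08 ± 3.30 (SD, n = 2).

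The Birc3 region was called gained in IgM cells (2 of 2 IL-21 and 0 of 2 IL-4 libraries), and so was the Bcl3 region. This rule called 6.64% of the regions found in WT IgM cells. The Birc3 call was lost when summits had to lie within 200 bp, at a −log10 q of at least 5 and at equal list lengths. In IgG1 cells the same rule called the Bcl3 region alone among the members, against 5.54% of the regions found in WT IgG1 cells. The difference between IgM and IgG1 cells at Birc3 could not pass a test: Fisher's exact test of 2 against 2 libraries gave p = 0.333, the smallest possible. Of the 32851 RefSeq starts, 0.521% had a peak of both WT IgM IL-21 libraries. Between the genes, 875 bp outside Birc2, a peak at 7837950 to 7838181 had a fold of 4.94 in the first IgM IL-21 library alone. A peak at 7912271 to 7912578, 39322 bp from Birc3, was found in KO IgM cells with IL-21 (fold 4.63).

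Nfkbia, the gene for IkBα on chromosome 12, had 4 regions. The one shared by libraries was far from the gene, at 55446870 to 55447161, 42404 bp outside its span and nearer to the proteasome subunit gene Psma6 (28546 bp). Its fold was 6.36 in the first IgM IL-21 library (rank 704 of 2034) and 6.004 in the second IgG1 IL-21 library (rank 394 of 1485). The summits in the 2 libraries were at 55447005 and 55447004. The other 10 libraries had no peak there.

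Inside Nfkbia, the second IgG1 IL-21 library had a peak of fold 7.26 at 55492027 to 55492622, with its summit 342 bp downstream of the transcription start. It stood at rank 235 of 1485. The second IgM IL-21 library had one of fold 3.87 at 55491612 to 55491826, 850 bp downstream, at rank 995 of 1171. These peaks did not overlap, being 200 bp apart, and were counted as separate regions. KO IgG1 cells with IL-4 had a peak of fold 4.30 just past the gene, 1561 bp outside its span.

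Nfkbiz, the gene for IkBζ on chromosome 16, had 6 regions, the most of the 10 genes, with folds of at most 4.73. The shared one lay inside the gene at 55822254 to 55822516. Its fold was 4.30 in the first IgM IL-21 library (rank 1452 of 2034) and 3.53 in the first IgG1 IL-21 library (rank 782 of 865). The other 5 regions were each found in 1 library, 2 of them in WT cells with IL-4 and 3 in KO cells, with folds of 3.97 to 4.73. Peaks of KO IgM cells with IL-21 (fold 4.63) and of WT IgM cells with IL-4 (4.19) lay within the gene too, so all 3 kinds of library had a peak in Nfkbiz, at different points.

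No WT IL-21 library had a peak in the window of Tnfaip3, the gene for A20. Its 2 regions were a peak of KO IgM cells with IL-21 13226 bp outside the gene (fold 4.63) and one of the second WT IgM library with IL-4 48191 bp away (fold 5.13).

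Among the subunit genes Nfkb1, Nfkb2 and Relb, no region was shared by WT libraries. In Nfkb1 (p105 and p50), the first IgM IL-21 library had a peak of fold 3.43 inside the gene, at rank 1960 of 2034, and KO IgM cells with IL-21 had one of fold 4.96. Nfkb2 (p100 and p52) had 1 region, from the first WT IgM library with IL-4, at fold 3.63. It was 47104 bp from the gene and inside another gene, Mfsd13a. Relb had 3 regions. A peak of fold 4.01 lay inside Relb, 536 bp from an end of its span, in the first IgM IL-21 library (rank 1034 of 2034), and one of fold 4.13 in the second IgG1 IL-21 library lay 35922 bp away beside Clptm1.

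The remaining Relb region was found in KO cells and in no WT library. It was at 19604120 to 19604591 on chromosome 7, 1723 bp outside Relb and overlapping the gene Clasrp. The fold was 4.91 in KO IgM cells with IL-4 and 3.94 in KO IgG1 cells with IL-21. Traf1, the adaptor gene, had 1 region, 36464 bp outside the gene and inside Phf19. It was found in the first WT IgM library with IL-21 (fold 3.96) and in KO IgG1 cells with IL-21 (fold 3.90), and was the only one of the 24 shared by WT and KO libraries.

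**Figure D3:**
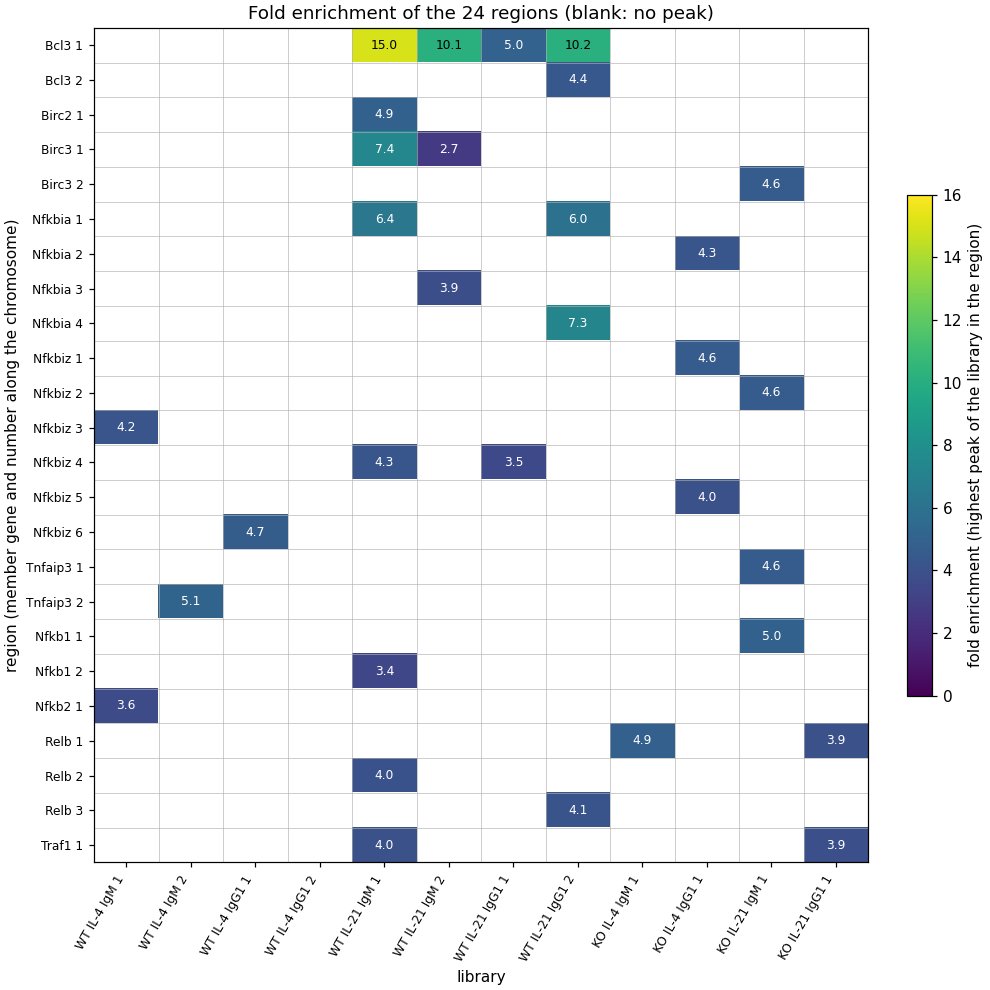
Fold enrichment of the 24 regions (rows, by gene and along the chromosome) in the 12 libraries (columns). Blank cells have no peak. The first row, the site within Bcl3, is filled in the 4 WT IL-21 columns (5.01 to 15.0); outside it the highest value is 7.41, and 18 rows have 1 filled cell.

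Set side by side, the windows held 19 peaks in the 4 WT IL-21 lists (2 to 8 per list), 4 in the WT IL-4 lists (0 to 2) and 10 in the KO lists (1 to 4). As a share of each list this was 0.231% to 0.393% with IL-21 in WT, 0% to 0.154% with IL-4 in WT and 0.131% to 0.373% in KO. The WT IL-21 and WT IL-4 shares did not overlap, while the KO shares overlapped both. Of the 19 WT IL-21 peaks, 5 belonged to the Bcl3 site, and the separation rested on it. Without its peaks the WT IL-21 shares were 0.116% to 0.344% and overlapped those with IL-4. Outside it the highest fold was 7.41 in WT IL-21, 5.13 in WT IL-4 and 4.96 in KO libraries. Per megabase the windows held 4.04 peaks in WT IL-21, 0.850 in WT IL-4 and 2.12 in KO lists, on average per list, against 0.705, 0.409 and 0.508 in the windows of all coding genes. The WT IL-21 density includes the 5 peaks of the Bcl3 site and 14 others. The WT IL-4 and KO lists, with no peak at that site, were also denser here than in the windows of all coding genes. The densities were not tested, and the members were chosen with results known. Of the 28 peaks outside the Bcl3 site none was in the top 10% of its list by −log10 p, 3 were in the top 25% and 14 in the lower 50%.

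Among the 24 regions 11 were found in WT IL-21 libraries alone (45.8%, against 34.5% of all regions), 4 in WT IL-4 libraries alone (16.7% against 27.5%) and 8 in KO libraries alone (33.3% against 33.5%). Regions of at least 2 libraries made up 25% of the 24 and 9.33% of all regions. These are counts without a test, and the 24 regions are few.

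**Figure D4:**
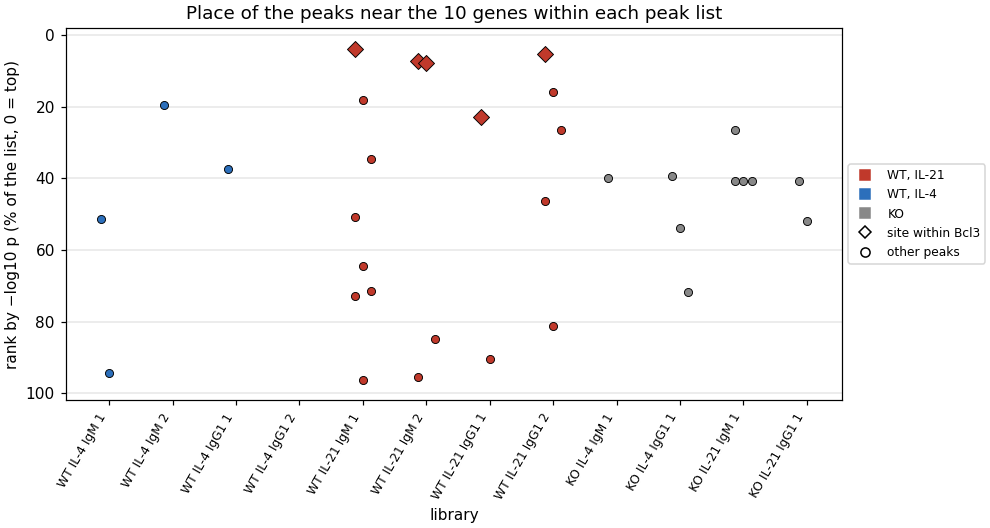
Rank of each of the 33 peaks within its own list by −log10 p, as a percentage of the list (0 at the top). Diamonds are the site within Bcl3 and circles all other peaks, in red for WT with IL-21, blue for WT with IL-4 and grey for KO. The diamonds lie between 3.88% and 22.9%, and the best-placed circle is at 15.8%.

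Counted by gene, all 10 members had a region of some library within 50 kb, as had 56.1% of the 21887 protein-coding genes. Because the members were chosen with results known, the counts by gene carry no test. A region of a WT IL-21 library was found near 8 of 10 members (31.3% of all genes), of a WT IL-4 library near 3 (24.1%) and of a KO library near 7 (28.7%). One member, Bcl3, had a gained region, against 1.38% of all genes. A region with at least 2 WT IL-21 libraries and no WT IL-4 library was found near 5 members, Bcl3, Birc2, Birc3, Nfkbia and Nfkbiz, where Birc2 and Birc3 share it, against 6.18% of all genes. That count rested on the longest list: without the first IgM IL-21 library it was 1, Bcl3. All 3 such regions outside Bcl3 had a peak in that library. With every list shortened to its top 623 peaks, the count was again 1, Bcl3. At the edge of the windows, measured from the edge of a region rather than its summit, the last regions inside were 47027 and 48014 bp from Nfkb2 and Tnfaip3 and the first outside 50303 and 50311 bp from Nfkbia and Birc2. They were each found in 1 library at folds of 3.63 to 5.65.

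The comparison with KO cells used the same 4 WT IL-21 lists, so among the member regions it could call no site but that of Bcl3. The Bcl3 region was the only member region called in all 4 WT lists with IL-21 and in neither KO list with IL-21, a pattern of 2.38% of the 5842 regions found in these 6 libraries. Fisher's exact test gave p = 0.0667, the smallest that 4 against 2 libraries allow, and an adjusted p of 1. A peak in any KO library was found in 9 of the 24 regions (37.5%), near the 36.7% of all regions.

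Other genes of the NF-kB pathway were examined by the same rule, 28 in all. None had a gained region (1.38% of all genes). A region of a WT IL-21 library lay within 50 kb of 18 (31.3% of all genes), of a WT IL-4 library near 9 (24.1%) and of a KO library near 8 (28.7%). A region of at least 2 WT IL-21 and no WT IL-4 libraries was found near 3 (6.18%). The first of these 3 was Rela, which encodes p65, the partner of p50. Its region, inside the gene on chromosome 19 at 5637460 to 5637957, had folds of 9.69 and 4.18 in the IgM libraries and 4.87 in the second IgG1 library with IL-21, and no peak in the other 9 libraries. The region near Nfkbib, an IkB gene, was 43886 bp away and closer to Hnrnpl (folds 7.84 and 4.21). Bcl10, an adaptor of antigen receptor signalling to NF-kB, had one inside the gene (folds 5.12 and 3.06) that was also found in a KO library. Beside these, a region 27 bp outside Zc3h12a, the gene of an RNase that restrains inflammatory transcripts, was called in 3 WT lists with IL-21, in 2 with IL-4 and in 1 KO list. A region of any library lay near 21 of the 28 genes, against 56.1% of all genes. No region was found near Cd40 itself, nor near Traf6, Ikbkb, Ikbkg, Rel, Map3k7 and Itch. These genes were named after their values were seen.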

How the data were processed

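STAT3 CUT&RUN peak lists of 12 libraries were analysed; the authors deposited 1 list per library. Per the submitters' processing notes, the build was mm10 and the tools were MACS2 2.2.7.1, deepTools 3.5.1, Trimmomatic 0.39 and Bowtie2 2.4.1, with no role for each. Which control the calling used is not given in the sources used here. For every peak, the deposited lists give a fold (a ratio over local background), a −log10 p (column 8), a −log10 q, a summit and a score that follows the −log10 p. Of the deposited peaks, 395 outside chromosomes 1 to 19, X and Y were left out. Gene spans and start sequences come from RefSeq on GRCm38.p6, the assembly behind mm10. Where a library had several peaks in a region, the highest fold stands for it. Pileups were recovered with a pseudocount of 1 for peaks with a −log10 p under 60. They were kept only where they matched the −log10 p to within 0.001, which held for those of the Bcl3 site. The share that matched was counted among the weaker of these peaks only, and was 100% there. Sequencing depth is not given with the lists.

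Presence was compared between libraries with Fisher's exact test, two-sided, with Benjamini-Hochberg adjustment over all regions (Python 3.11.15, pandas 2.3.3, scipy 1.17.1). The code was run on simulated lists whose planted regions lay apart from all other peaks. That check therefore does not cover planted regions overlapped by other peaks. Members and lists were chosen with earlier results of these data known. By rule, all members and their regions of at least 2 libraries were described in full, with the highest region of 1 library per member; further regions of 1 library were named after their values were seen. Correlations of same-number deviations between the WT groups were −0.0153 to 0.0198. With 90.7% of all regions found in 1 library, these values cannot exclude that replicate numbers pair the libraries. Alternatives changed the peak threshold, the overlap, the window, the list length and the libraries.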

Additional observations from a re-analysis of the deposited data

How the results depend on the processing

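The count of member regions gained in both isotypes (1), of members with such a region (1) and of member regions in all WT IL-21 and neither KO IL-21 library (1) stayed at 1 under every alternative run for each, and the gene was Bcl3 each time. The alternatives were thresholds on −log10 q of 2 and 5, an overlap of 50% of the shorter peak, summits within 200 bp, windows of 10 and 100 kb, equal list lengths (623 peaks), leaving out each WT library in turn and, chosen after seeing the data, merging peaks up to 500 bp apart. By construction, changing the window or leaving out a library could not drop the Bcl3 site, which lies inside the gene and met the full rule. Leaving out a library or widening the window could only have added regions. For the gained counts, asking for 3 of the 4 WT IL-21 libraries, a looser rule that could not drop the site either, also gave 1. So did the replicate block, which pairs IL-21 and IL-4 libraries of the same isotype and number and by construction calls the same regions; it could not be formed for KO groups of 1 library.

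The count of 5 members with a region of at least 2 WT IL-21 and no WT IL-4 libraries did move, under alternatives chosen after seeing the data. It was 2 at a −log10 q of 5, 3 with summits within 200 bp, 3 in windows of 10 kb, 1 at equal list lengths, and between 1 and 5 without 1 WT library. Each of these uses fewer peaks, a narrower window or a stricter match by construction. The mean fold at Bcl3 was 8.44 to 11.8 without 1 WT IL-21 library and 9.69 by the peak of highest −log10 p. Sites with fewer than 10 to 12 fragments at the summit could not be seen in these lists. Where the local background was higher the limit was higher too, 12 to 16 fragments at the Bcl3 summits.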
